A study of Mus musculus with 69 samples.

Results

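The 8 claudins Cldn1, Cldn2, Cldn3, Cldn4, Cldn5, Cldn7, Cldn8 and Cldn10 were examined in the kidneys of lupus-prone mice over the day, in nephritis and after remission. They were taken by symbol, and all 8 were found among the 24523 symbols with counts. Claudins are the membrane proteins that form the strands of the tight junction, the seal between neighbouring epithelial or endothelial cells. Some are pores for ions or water and others are barriers, and each nephron segment expresses its own set, which sets how freely salt and water pass between the cells there.

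RNA of perfused whole kidneys of NZB/W F1 mice, a hybrid strain that develops lupus nephritis with age, was sequenced in 30 young mice aged 12 weeks, 27 nephritic mice aged 30 to 45 weeks with established proteinuria, and 8 mice in remission. The remission mice had been nephritic, were treated with cyclophosphamide, CTLA4Ig and anti-CD40L at an age of 36 to 50 weeks, and were harvested 8 weeks later at ZT0 (lights on) or ZT12 (lights off), with 4 mice at each. Young kidneys were harvested from 7, 4, 4, 7, 4 and 4 mice at ZT0, 4, 8, 12, 16 and 20. The same time points held 7, 4, 4, 6, 3 and 3 nephritic mice. Nephritis cannot be told apart from age in these groups, and remission cannot be told apart from treatment and age. The remission kidneys were taken as a separate run by their diagnosis label, and the main fits cannot tell this run apart from remission. Second libraries of 4 young and nephritic mice, marked as repeats in their titles, were taken as part of that run. They were used only in alternatives. No label used here names a run.

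Total counts were between 13311278 and 48075977 per mouse, and the members had between 186 and 26682 counts in a mouse. Remission libraries had 13311278 to 21849912 counts, fewer than every young (25257530 to 35744843) and nephritic (26596500 to 48075977) library used in the main fits. Depth therefore cannot be told apart from remission. The young and nephritic libraries were assigned to 2 sets by the prefixes of their titles. The numbers per time point were as in the sample table of the study. Set 1 held 6 young and 5 nephritic mice of ZT0 and ZT12. Remission ZT12 replicate 4 stood apart from its group: without it, 202 genes differed between ZT0 and ZT12 in remission, against 0 with it. Levels are given in CPM, read counts scaled to the TMM-adjusted library size.

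The claudin genes are spread over 5 chromosomes, with Cldn3 and Cldn4 as close neighbours. On GRCm38, Cldn3 lies at chr5:134986214-134987472 on the plus strand and Cldn4 at chr5:134945119-134946934 on the minus strand, 39.3 kb apart, and each has a single exon. Cldn3 shares 40 exon bases with the antisense gene Wbscr25, and since the handling of strand is not stated, reads there cannot be assigned to one or the other. The other 7 share no exon bases with another gene. Cldn1 lies at chr16:26356642-26371841, Cldn8 at chr16:88560828-88563183 and Cldn5 at chr16:18776847-18778262. Cldn7 lies at chr11:69964779-69967885, Cldn2 at chrX:139800828-139811386 and Cldn10 at chr14:118787908-118875489. Cldn10 is transcribed from more than 1 start site into forms with different pore properties, and the counts per symbol merge them.

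The 250 bases before the start sites are shown for the neighbouring pair Cldn3 and Cldn4, which both rose in nephritis, as Cldn7 did. Those of Cldn10 and Cldn1, which varied over the day, are also shown (RefSeq, GRCm38.p6, 5′ to 3′ on the strand of the gene). Capitals mark matches to the AP-1 site TGACTCA, and to TTATGTAA, a form of the D-box, the site of the clock output factors DBP, TEF and HLF.
Cldn4 (chr5:134946935-134947184, minus strand): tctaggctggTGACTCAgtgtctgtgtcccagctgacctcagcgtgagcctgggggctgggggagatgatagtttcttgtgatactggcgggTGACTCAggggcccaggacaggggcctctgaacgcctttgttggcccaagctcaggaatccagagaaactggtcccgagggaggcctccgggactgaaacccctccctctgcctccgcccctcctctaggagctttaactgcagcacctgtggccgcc
Cldn3 (chr5:134985964-134986213, plus strand): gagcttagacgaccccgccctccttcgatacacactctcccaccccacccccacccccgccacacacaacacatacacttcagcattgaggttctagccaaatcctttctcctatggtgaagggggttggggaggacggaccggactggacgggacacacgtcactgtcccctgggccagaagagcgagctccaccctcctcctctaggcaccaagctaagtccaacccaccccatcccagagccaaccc
Cldn10, first start site (chr14:118787621-118787870, plus strand): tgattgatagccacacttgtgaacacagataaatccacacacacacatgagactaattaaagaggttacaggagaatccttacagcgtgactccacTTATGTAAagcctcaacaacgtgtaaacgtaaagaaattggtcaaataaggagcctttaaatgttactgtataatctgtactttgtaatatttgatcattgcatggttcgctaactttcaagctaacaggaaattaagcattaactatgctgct
Cldn10, second start site (chr14:118854700-118854949, plus strand): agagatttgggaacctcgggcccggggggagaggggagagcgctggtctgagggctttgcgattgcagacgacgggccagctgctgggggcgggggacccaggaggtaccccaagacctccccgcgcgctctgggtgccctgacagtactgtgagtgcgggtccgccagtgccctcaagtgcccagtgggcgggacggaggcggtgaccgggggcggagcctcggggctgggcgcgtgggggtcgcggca
Cldn1 (chr16:26371840-26372089, minus strand): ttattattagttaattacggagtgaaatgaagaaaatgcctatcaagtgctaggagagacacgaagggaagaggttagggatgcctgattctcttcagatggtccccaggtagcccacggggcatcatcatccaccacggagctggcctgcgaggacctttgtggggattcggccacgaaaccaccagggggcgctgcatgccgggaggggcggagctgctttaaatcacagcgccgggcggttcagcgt
The Cldn4 window held 2 matches to TGACTCA, 240 and 158 bases before the start site. No window of the other members matched held any, those of Cldn3 and Cldn7 included. On either strand, 4.46% of 32851 promoter windows of this length held a match to TGACTCA and 0.167% held 2 or more. The AP-1 letters were searched after the sequences were seen, so these shares do not measure how unusual the Cldn4 window is. The window of the first Cldn10 start site held TTATGTAA 154 bases upstream, as did 0.819% of windows, and the second start site had none. The windows of the first and second start site were 36% and 72.4% GC. The other D-box form searched, TTATGCAA (0.694% of windows), and the E-box CACGTG (6.02% of windows), where CLOCK and BMAL1 bind, were found in no window of the 7 members matched. These are matches of letters, with no measurement of binding, and Cldn8 was not matched.

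In young kidneys, the 8 claudins were set in order by their level per kilobase of exon. Cldn2, the cation and water pore of the proximal tubule and thin descending limb, was highest at 159 ± 24.7 CPM per kb (SD, n = 30). Cldn10, the ion pore of the proximal tubule and thick ascending limb, followed with 90.7 ± 16, and Cldn8, a claudin of the distal nephron and collecting duct, with 44.9 ± 9.86. These 3 kept their order in all 30 mice. Cldn4 (20.3 ± 3.41) and Cldn7 (18.4 ± 1.84) of the distal nephron and collecting duct had overlapping spreads. Within the same mouse, Cldn4 was above Cldn7 in 23 of 30 mice, and the difference was not tested. Cldn3, a sealing claudin of the distal nephron, was at 15.4 ± 3.39 and Cldn5, the claudin of endothelium, at 13.8 ± 2.13 CPM per kb. Cldn1, a sealing claudin found in the parietal cells of Bowman's capsule, was lowest at 8.68 ± 3.31. The markers of each segment were present in all groups, with no tubule, podocyte or endothelial marker under a median of 1 CPM.

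The distal claudins Cldn3, Cldn4 and Cldn7 rose in nephritic kidneys, and the proximal and ascending limb pores Cldn2 and Cldn10 fell. Levels were compared between all young and nephritic mice with the time of day and the set as terms, by edgeR's quasi-likelihood test with Benjamini-Hochberg adjustment over 17521 genes. Of the 8 claudins, 4 rose and 2 fell at an adjusted p of at most 0.05, beside 28.1% of all genes higher and 33.9% lower, so this number of calls is not particular to the claudins. In bulk tissue, fewer cells of a type and less RNA per cell cannot be told apart.

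**Figure D1:**
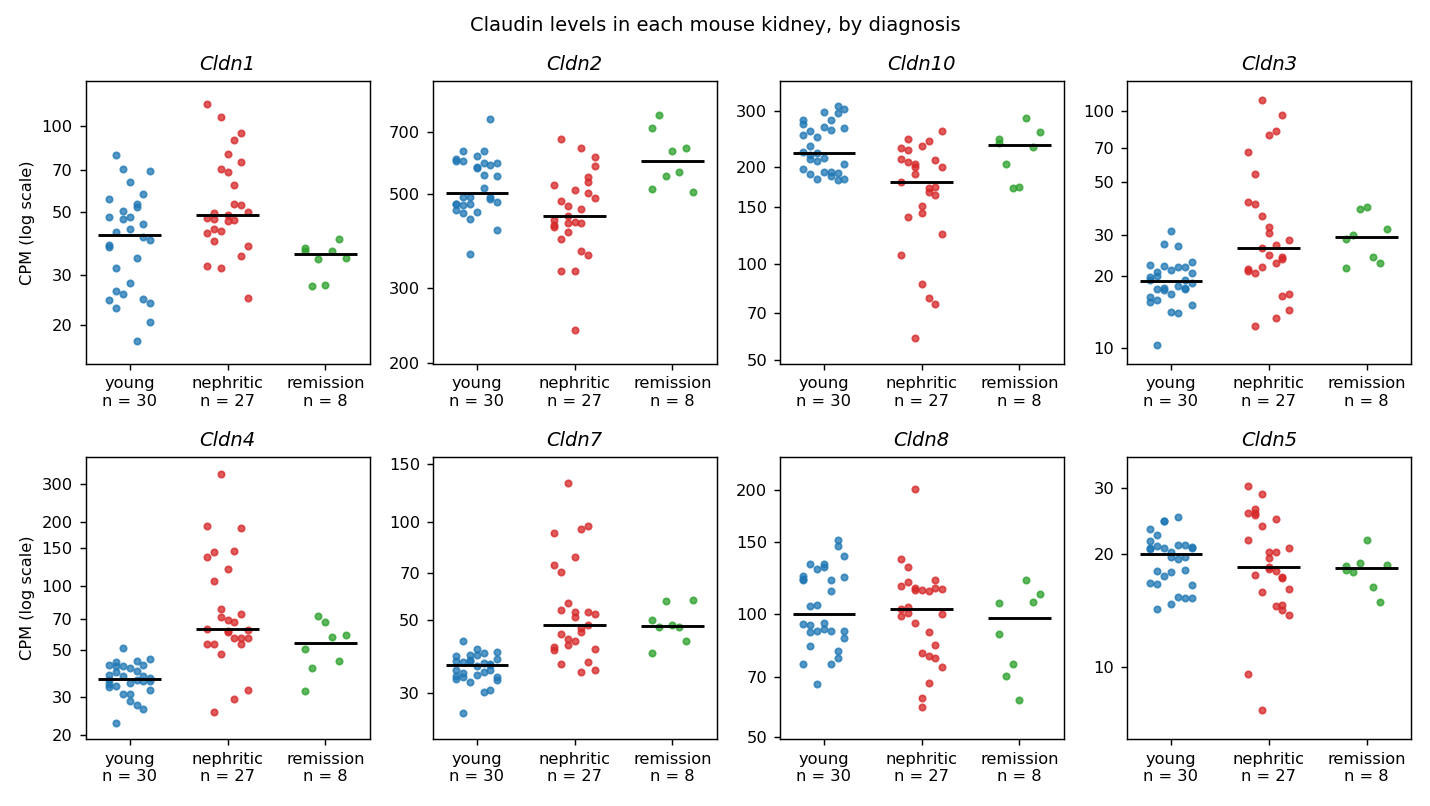
CPM on a log scale of each claudin in every mouse (points) with the median (line), for young, nephritic and remission mice. In nephritis, Cldn4 reached 337 CPM and Cldn10 fell as low as 58.5 CPM, while the young mice stayed between 22.8 and 50.8 CPM for Cldn4.

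Cldn4, which together with Cldn8 forms the paracellular chloride path of the collecting duct, changed most of the 8. Its level ran from 22.8 to 50.8 CPM (median 36.4) in young mice and from 25.4 to 337 CPM (median 62.9) in nephritic mice. The groups overlapped, but 23 of 27 nephritic mice were above the highest young mouse. The log2 change was 1.16 (SE 0.17, adjusted p = 7.03e-08), a 2.23-fold rise.

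Cldn3 ran from 10.3 to 31.1 CPM (median 19) in young and from 12.3 to 112 CPM (median 26.4) in nephritic mice. Here 10 of 27 nephritic mice exceeded the young range, and the rest lay within it. The rise was 0.83 on the log2 scale (SE 0.17, adjusted p = 4.96e-05).

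Cldn7 ran from 26.0 to 43.4 CPM (median 36.4) in young mice and from 34.8 to 132 CPM (median 48.5) in nephritic mice, 18 of 27 of them above the young range. It rose by 0.61 on the log2 scale (SE 0.10, adjusted p = 3.69e-07). Cldn3, Cldn4 and Cldn7 were all above their young ranges in 10 nephritic mice, and none of the 3 was in 4. The spread between mice grew as well: the coefficient of variation of Cldn4 was 16.8% in young and 73.7% in nephritic mice, and that of Cldn7, the smallest of the 8 in young mice, was 9.97% and 41.3%.

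Cldn8 of the same segments did not follow them. It ran from 67.3 to 151 CPM (median 99.7) in young and from 59.3 to 201 CPM (median 102.6) in nephritic mice, and the ranges lay over each other, with 1 nephritic mouse above and 2 below the young range. The log2 change was -0.09 (SE 0.06, adjusted p = 0.19). Of 5 principal cell markers 1 was higher (Aqp2, log2 change 0.33) and 0 lower, and of 5 intercalated cell markers 1 was higher and 1 lower. The summed principal cell markers ran from 525 to 1094 CPM (median 893) in young and from 542 to 2248 CPM (median 955) in nephritic mice. Of 5 markers of urothelium, an epithelium also rich in Cldn4, 1 was higher (Krt5) and 3 were lower, and their sum was 12.9 to 67.8 CPM in young and 6.26 to 72.8 CPM in nephritic mice.

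Cldn10 ran from 183 to 310 CPM (median 223) in young and from 58.5 to 260 CPM (median 180) in nephritic mice, of which 14 of 27 were below the lowest young mouse. Its log2 change was -0.50 (SE 0.10, adjusted p = 1.81e-05). Cldn2 ran from 362 to 749 CPM (median 504) in young and from 239 to 672 CPM (median 444) in nephritic mice, with 4 nephritic mice below the young range. Its log2 change was -0.23 (SE 0.07, adjusted p = 0.006). The 6 proximal tubule markers all fell, with a median log2 change of -0.77, and their sum was 8418 to 14260 CPM in young and 1351 to 10840 CPM in nephritic mice. Of 4 thick ascending limb markers, 1 fell and none rose. Their part in the fall of Cldn2 and Cldn10 was not tested.

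Cldn1 ran from 17.6 to 78.9 CPM (median 41.5) in young and from 25.0 to 120 CPM (median 48.6) in nephritic mice, and 5 nephritic mice exceeded the young range. Its log2 change was 0.47 (SE 0.10, adjusted p = 5.54e-05). Of 4 podocyte markers 2 were higher, and the summed markers ran from 256 to 521 CPM in young and from 114 to 589 CPM in nephritic mice. Their part in the rise of Cldn1 was not tested.

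Cldn5 had nearly equal medians, 20 CPM (14.3 to 25.1) in young and 18.5 CPM (7.71 to 30.2) in nephritic mice. The nephritic mice spread to both sides, 6 above and 4 below the young range. The log2 change was -0.04 (SE 0.08, adjusted p = 0.684), while 4 of 6 endothelial markers fell (median log2 change -0.21) and their sum was 218 to 415 CPM in young and 133 to 381 CPM in nephritic mice.

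Within the sets, directions held for the 6 claudins that passed, with larger changes in the small Set 1. In Set 1 alone the log2 changes were 2.36 for Cldn4, 2.01 for Cldn3, 1.35 for Cldn7, 0.73 for Cldn1, -0.80 for Cldn2 and -1.16 for Cldn10, all with an adjusted p of at most 0.0442. In Set 2 alone they were 0.92, 0.56, 0.46, 0.44, -0.07 and -0.32, and the fall of Cldn2 did not pass (adjusted p = 0.407). Other cell types moved with the groups. Of 4 distal convoluted tubule markers 4 fell, with sums of 1034 to 3113 CPM in young and 524 to 2903 CPM in nephritic mice. All 5 leukocyte markers rose (sums of 9.59 to 27.9 and 24.2 to 545 CPM), as did 6 of 6 injury markers (37.2 to 147 and 46.7 to 1825 CPM) and 2 of 3 fibroblast markers (35.6 to 111.5 and 52.5 to 684 CPM), and their part in the claudin changes was not tested. The nephritic mice of Set 1 had a median of 305 CPM of the injury gene Lcn2 and those of Set 2 a median of 55.8 CPM.

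Other genes of the tight junction moved in both directions. The list held 39 genes: further claudins, occludin and its relatives, junctional adhesion molecules, the scaffold proteins of the Tjp, Magi and polarity families, and angulins. Of these, 35 had enough counts to test, and 8 rose and 14 fell in nephritis, beside 28.1% and 33.9% of all genes. The median log2 change of the 35 was -0.04, beside -0.03 over all genes tested and 0.22 over the 8 claudins. A log2 change of at least 1 was reached by Cldn18 alone, the claudin of stomach and lung, which fell by 1.23 (SE 0.27, adjusted p = 0.00011) from a median of 0.277 CPM in young to 0.12 CPM in nephritic mice, a level near the limit of detection.

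Within nephritic mice, the same claudins followed the degree of tubular injury. Lcn2, which encodes the injury marker lipocalin-2, ran from 1.5 to 17.3 CPM in young, from 4.79 to 702 CPM in nephritic and from 7.13 to 65.9 CPM in remission mice. Its log2 CPM was entered in an edgeR fit of the 27 nephritic mice with time and set, so that a slope is the log2 change of a gene per doubling of Lcn2. Of the 8 claudins 4 had a positive and 2 a negative slope, beside 24.3% and 23.6% of 16872 genes.

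The slopes were 0.36 (SE 0.04, adjusted p = 4.63e-08) for Cldn3, 0.35 (SE 0.03, adjusted p = 1.82e-08) for Cldn4 and 0.20 (SE 0.02, adjusted p = 2.58e-08) for Cldn7. Cldn1 had a slope of 0.16 (SE 0.03, adjusted p = 4.53e-05). The slopes were negative for Cldn10, -0.18 (SE 0.03, adjusted p = 2.93e-05), and Cldn2, -0.08 (SE 0.02, adjusted p = 0.0106). Cldn8 had a slope of 0.02 (SE 0.02, adjusted p = 0.458) and Cldn5 of -0.07 (SE 0.03, adjusted p = 0.104). With Havcr1, a gene of injured proximal tubule, in place of Lcn2, the same number of claudins passed. The slopes were then 0.46 for Cldn3, 0.43 for Cldn4 and -0.23 for Cldn10. In Set 2 alone the slopes were 0.33 for Cldn3, 0.34 for Cldn4, 0.18 for Cldn7 and -0.15 for Cldn10. The slope of Cldn2 did not pass without nephritic ZT0 replicate 4 (-0.06, adjusted p = 0.0532).

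The mouse with most Lcn2, nephritic ZT0 replicate 3, had 702 CPM of it, with 112 CPM of Cldn3, 337 of Cldn4, 132 of Cldn7 and 58.5 of Cldn10. The mouse with least, nephritic ZT20 replicate 2, had 4.79 CPM of Lcn2, with 13.4 CPM of Cldn3, 29.3 of Cldn4, 34.8 of Cldn7 and 173 of Cldn10, and its Cldn3, Cldn4 and Cldn7 lay within the young ranges. Without the mice of highest and lowest Lcn2, the slopes were 0.37, 0.35, 0.20 and -0.18 in the same order. Other marker lists moved along with Lcn2: 6 of 6 proximal tubule and 4 of 4 thick ascending limb markers had negative slopes, and 6 of 6 injury markers (Lcn2 among them) positive ones. In the distal nephron, 4 of 4 distal convoluted tubule markers, 3 of 5 intercalated cell markers and 1 of 5 principal cell markers had negative slopes and none a positive one, as had 2 of 5 urothelium markers. Of the other lists, 2 of 4 podocyte and 2 of 6 endothelial markers were negative, and 2 of 5 leukocyte and 2 of 3 fibroblast markers positive. Their part in the slopes of the claudins was not tested. Of the 35 other tight junction genes 12 had a positive and 5 a negative slope, beside 24.3% and 23.6% of all genes.

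**Figure D2:**
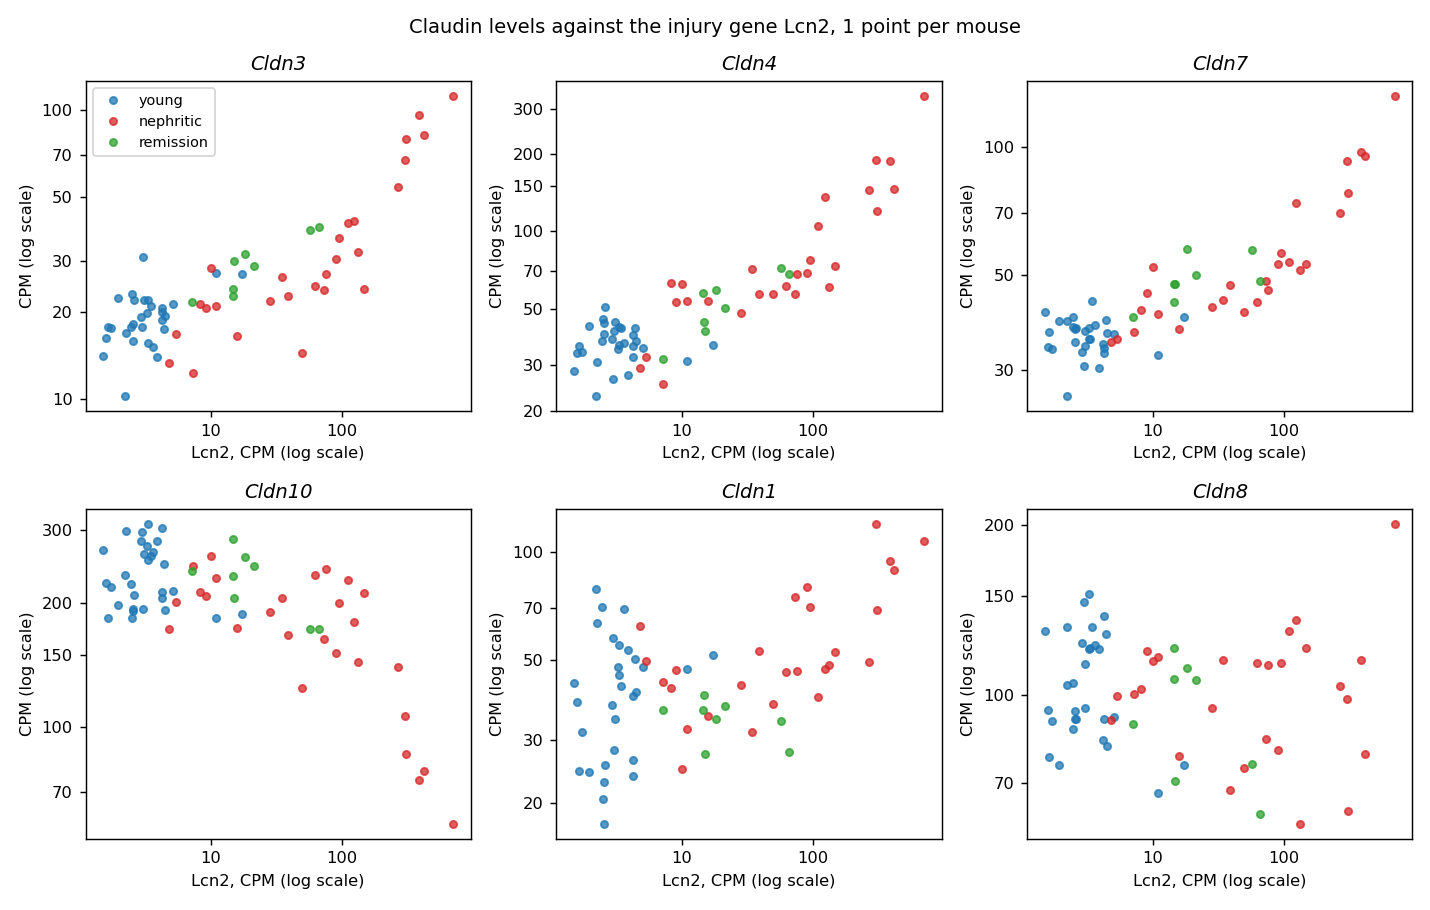
CPM of 6 claudins against CPM of Lcn2, both on log scales, 1 point per mouse. Among nephritic mice Cldn3, Cldn4 and Cldn7 rise and Cldn10 falls with Lcn2, while the slope of Cldn8 is 0.02.

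Over the 6 time points, 5 of the 8 claudins varied in young mice (edgeR F test, 39.8% of 16521 genes). Cldn1 had the largest amplitude and was highest at ZT20. Cldn8 and Cldn10 came next, and both were highest at ZT4. Differences in timing between the claudins were not tested.

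Cldn1 was at 55.2 to 78.9 CPM (median 69.9) at ZT20 and at 17.6 to 28.2 CPM (median 26.0) at ZT8. The groups did not overlap, and the median was 50.3 CPM at ZT0, 38.6 at ZT4, 24.5 at ZT12 and 47.4 at ZT16. The highest and lowest set-adjusted means, at ZT20 and ZT12, differed 2.90-fold (adjusted p = 4.35e-10). A 24 h cosine gave an amplitude of 0.72 (SE 0.07) on the log2 scale with a peak at 21.0 h.

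Cldn10 was highest at ZT4, 262 to 310 CPM (median 293), and low from ZT8 to ZT16, where medians were 201, 197 and 190 CPM. No mouse of ZT8, ZT12 or ZT16 reached the lowest mouse of ZT4. The range of means was 1.52-fold (adjusted p = 1.47e-09), and the cosine had its peak at 1.2 h and an amplitude of 0.29 (SE 0.03). Cldn8 was at 114 to 151 CPM (median 131) at ZT4 and at 67.3 to 91.8 CPM (median 78.3) at ZT16, which did not overlap. Its range was 1.67-fold (adjusted p = 4.01e-08), and the cosine peaked at 1.3 h (amplitude 0.36, SE 0.04).

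Cldn3 and Cldn4 varied less. Cldn3 had its highest mean at ZT16 (19.4 to 27.4 CPM) and its lowest at ZT20 (10.3 to 17.8 CPM), with an adjusted p of 0.0126, but not by the cosine fit (adjusted p = 0.092). Cldn4 passed by a narrow margin (adjusted p = 0.0499), with time group medians between 31.1 and 40.4 CPM, and did not pass in 21 of 30 fits that left out 1 mouse (adjusted p from 0.0322 to 0.083 over the 30), nor in 5 alternatives with an adjusted p up to 0.153. Cldn2, Cldn7 and Cldn5 did not pass in young mice (adjusted p = 0.166, 0.176 and 0.264).

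In nephritic mice Cldn8 was the only claudin of the 8 that varied over the day in the edgeR fit (adjusted p = 0.001, 21.6% of 16872 genes). Cldn1 had an adjusted p of 0.0535 and Cldn5 of 0.0584, and both passed in Set 2 alone (0.0104 and 0.00453). For Cldn1, the median was again highest at ZT20, where mice had 62.1 to 79.9 CPM, and lowest at ZT8, at 25.0 to 39.5 CPM, with no overlap of these 2 times. Cldn1 passed in 5 of 27 fits that left out 1 mouse, with an adjusted p from 0.0313 to 0.129 over the 27. It did so without nephritic ZT0 replicate 1 (adjusted p = 0.0325), 2 (0.0315), 5 (0.0495) or 7 (0.0379), or without ZT12 replicate 2 (0.0313). Its amplitude was 0.40 (SE 0.13), with a peak at 21.0 h as in young mice. Cldn5 was highest at ZT16, 25.4 to 30.2 CPM in 3 mice. It passed in 3 of the 27 fits, without nephritic ZT0 replicate 1 (0.0458), 2 (0.0398) or 3 (0.00651). Over the 27 fits its adjusted p reached 0.138. Cldn10 had an adjusted p of 0.325 in nephritic mice, in which its ZT0 levels ran from 58.5 to 246 CPM. Injury was no term in the tests over time, here or for the difference in time course. The nephritic mice with most Lcn2, at 701.6, 416 and 387.5 CPM, were of ZT0 or ZT12. ZT0 also held mice with 7.23 and 5.37 CPM of Lcn2. The part of injury in the time courses was not tested.

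The group by time terms of a fit of both groups asked whether the time course differed between young and nephritic mice. Cldn8 alone among the 8 passed (adjusted p = 0.00625, beside 6.27% of 17521 genes). At ZT8 the nephritic mice had 115 to 130 CPM and the young mice 83.5 to 95.0. At ZT16 the nephritic mice had 95.2 to 104 CPM and the young mice 67.3 to 91.8. At ZT20 the order was reversed, with 80.1 to 90.4 CPM in nephritic and 104.5 to 122.6 CPM in young mice. The groups did not overlap at these 3 times. The lowest time was ZT12 in nephritic mice (59.3 to 78.8 CPM) and ZT16 in young mice. The cosine peak was at 2.6 h with an amplitude of 0.35 (SE 0.08) in nephritic mice, and the same comparison by a 24 h cosine did not pass (adjusted p = 0.739).

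Cldn1 and Cldn10 had adjusted p of 0.0727 and 0.111 for a different time course, so a change in their rhythm is not shown. Over the 57 fits that left out 1 mouse, the adjusted p was 0.0336 to 0.166 for Cldn1 and 0.0478 to 0.18 for Cldn10. Cldn1 passed in 2 of them, without nephritic ZT0 replicate 6 (0.0336) or ZT12 replicate 5 (0.0477). Cldn10 passed in 1, without nephritic ZT0 replicate 7 (0.0478). The remaining 5 claudins had an adjusted p between 0.251 and 0.582. Of the 35 other tight junction genes, 18 varied over the day in young and 4 in nephritic mice (39.8% and 21.6% of all genes). Among these 35, 1 gene, Cgn, differed in time course by the group by time terms (adjusted p = 0.039), beside 6.27% of all genes.

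**Figure D3:**
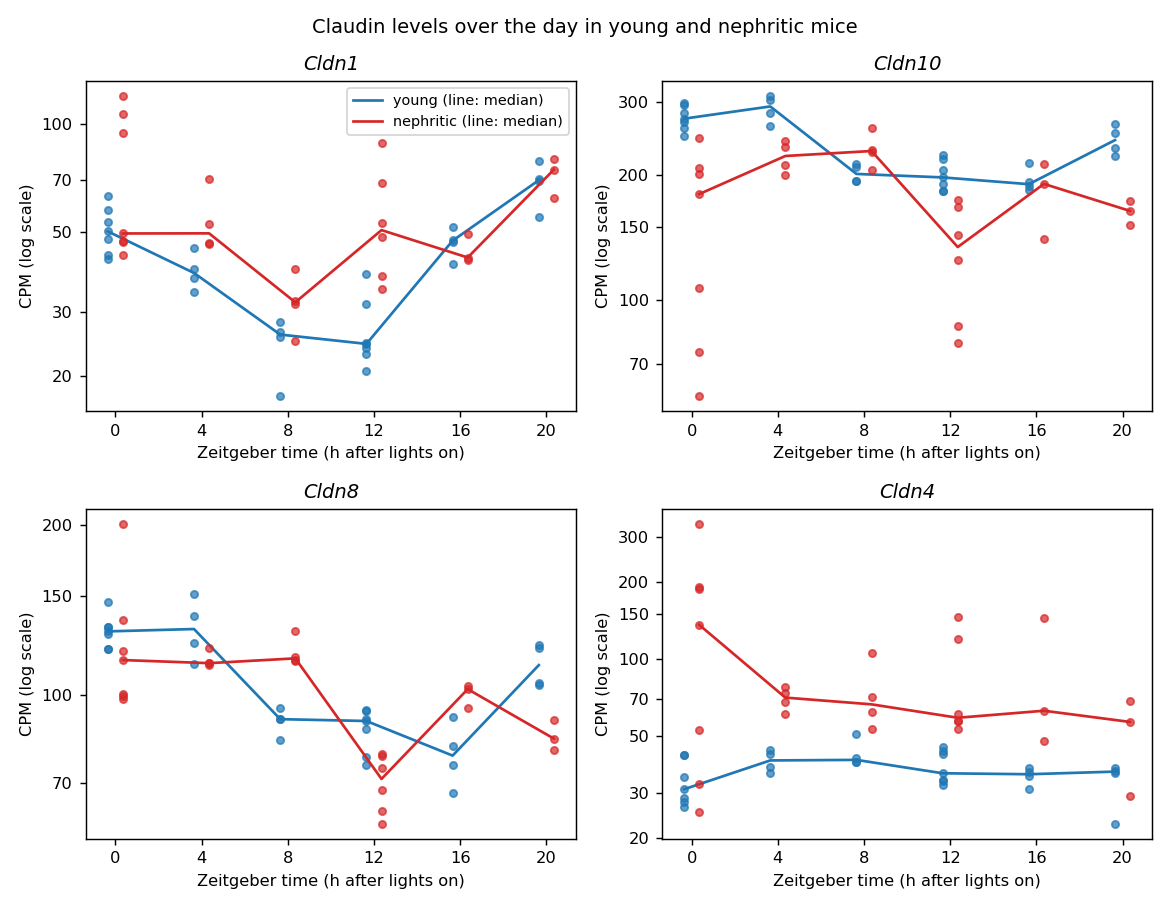
CPM on a log scale against Zeitgeber time for Cldn1, Cldn10, Cldn8 and Cldn4, with a point per mouse and lines through the medians of young and nephritic mice. The young lines of Cldn10 and Cldn8 fall from ZT4 to ZT8, and the nephritic line of Cldn8 is still high at ZT8, at a median of 116 CPM.

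The claudins were then compared between remission and nephritic mice at ZT0 and ZT12, in one fit of 35 mice of all 3 groups (16841 genes). Remission mice had less Cldn1 and Cldn4 and more Cldn2 and Cldn10 than nephritic mice, beside 17% of all genes higher and 20.5% lower. Against young mice, Cldn3 and Cldn7 were higher in remission and no claudin was lower, beside 21.2% of genes higher and 20.4% lower. With the run of the remission mice as a term, neither passed against young mice, nor did Cldn2 against nephritic mice. Both comparisons use the same 8 remission mice.

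Markers of other cell types moved in these comparisons too. Against young mice, 3 of 5 urothelium markers (Krt5 2.78-fold), 5 of 5 leukocyte and 4 of 6 injury markers were higher in remission. So were 3 of 6 endothelial, 1 of 3 fibroblast, 2 of 4 thick ascending limb and 1 of 5 principal cell markers (Aqp2 1.63-fold). Lower were 3 of 6 proximal tubule, 3 of 4 distal convoluted tubule and 1 of 5 intercalated cell markers. No podocyte marker passed. Against nephritic mice, 4 of 5 urothelium markers were higher, and 5 of 6 injury and 2 of 3 fibroblast markers were lower. Of 4 podocyte markers 1 was lower (Wt1 0.71-fold), and of 2 thin descending limb markers 1 was higher. Of 5 intercalated cell markers 1 was higher and 1 lower, and no principal cell marker passed. In remission the summed urothelium markers were at 25.3 to 88.4 CPM, the leukocyte markers at 23.7 to 234 CPM and the injury markers at 123 to 266 CPM. Their part in the claudin differences was not tested.

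Cldn10 was at 172 to 285 CPM (median 235) in remission, all 8 mice above the nephritic median of 144 CPM (58.5 to 246). Log2 changes were 0.65 (SE 0.18, adjusted p = 0.00601) against nephritic and -0.11 (SE 0.19, adjusted p = 0.674) against young mice. Cldn2 was at 505 to 767 CPM (median 597), again with all 8 above the nephritic median of 423 CPM. Its log2 change against nephritic mice was 0.45 (SE 0.14, adjusted p = 0.0133), and against young mice 0.16 (SE 0.15, adjusted p = 0.42). All 4 thick ascending limb markers were higher in remission than in nephritic mice, while of the 6 proximal tubule markers 0 were higher and 1 was lower. Their part in the change of Cldn10 and Cldn2 was not tested.

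Cldn1 was at 27.5 to 40.0 CPM (median 35.4) in remission, and all 8 mice were below the nephritic median of 49.7 CPM (34.9 to 120). This gave a log2 change of -0.74 (SE 0.19, adjusted p = 0.00271) against nephritic and 0.05 (SE 0.19, adjusted p = 0.869) against young mice.

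Cldn4 was at 31.9 to 71.9 CPM (median 54.0) in remission, with 5 of 8 mice above the young range of 26.4 to 45.5 CPM at these times, and 6 of 8 below the nephritic median of 60.8 CPM. Its log2 change was -0.90 (SE 0.35, adjusted p = 0.0401) against nephritic and 0.67 (SE 0.32, adjusted p = 0.0881) against young mice. The first did not pass in 11 of 35 fits that left out 1 mouse (adjusted p from 0.0128 to 0.0981 over the 35), with the highest values without nephritic ZT0 replicate 4 (0.0966) or 6 (0.0981), nor without remission ZT12 replicate 4 (0.0549), nor by limma voom (log2 change -0.59, adjusted p = 0.158).

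Cldn3 was at 21.7 to 39.4 CPM (median 29.4), with 6 of 8 mice above the young range of 14 to 23.1 CPM at these times. It differed by 0.86 (SE 0.32, adjusted p = 0.0299) on the log2 scale against young and by -0.47 (SE 0.34, adjusted p = 0.294) against nephritic mice. Cldn7 was at 39.8 to 57.7 CPM (median 48.1), and 6 of 8 mice were above the young range of 30.3 to 43.4 CPM. Its log2 change was 0.49 (SE 0.19, adjusted p = 0.0341) against young and -0.33 (SE 0.20, adjusted p = 0.186) against nephritic mice. The call of Cldn3 was lost without remission ZT12 replicate 2 (0.0572) or 3 (0.0595), and that of Cldn7 without remission ZT12 replicate 1 (0.0522), 2 (0.0692) or 4 (0.0536) or ZT0 replicate 4 (0.0624).

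Cldn8 and Cldn5 did not pass against either group. Cldn8 had log2 changes of 0.06 (adjusted p = 0.681) against nephritic and -0.11 (adjusted p = 0.409) against young mice, and Cldn5 had 0.07 (adjusted p = 0.751) and 0.03 (adjusted p = 0.881). All 6 endothelial markers were higher in remission than in nephritic mice, with a median log2 change of 0.72.

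With the run of the remission mice as a term, estimated from the 4 repeated mice, the log2 changes against nephritic mice were -1.02 for Cldn1 (adjusted p = 0.00298), 0.86 for Cldn10 (0.0195), -1.14 for Cldn4 (0.0474) and 0.46 for Cldn2 (0.0794), and against young mice 0.70 for Cldn3 (0.327) and 0.29 for Cldn7 (0.515), and no claudin then passed against young mice.

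**Figure D4:**
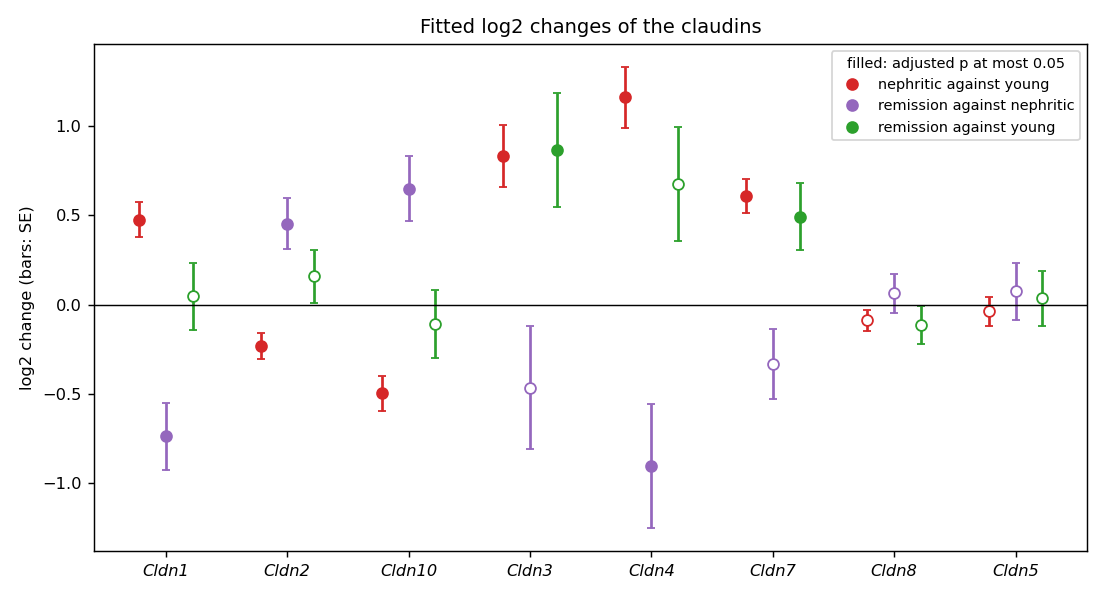
Fitted log2 changes (points) with SE (bars) of the 8 claudins for nephritic against young, remission against nephritic and remission against young mice, where filled points have an adjusted p of at most 0.05. Cldn10 falls by 0.50 in nephritis and is higher by 0.65 in remission than in nephritis. Cldn3 and Cldn7 are higher than young in both, but in remission neither passed with the run as a term.

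Between ZT0 and ZT12 in remission mice, no claudin passed, as no gene did by edgeR (0% of 14451 genes, with 1449 at an unadjusted p under 0.05, and 24 genes by DESeq2). Cldn8 was at 89.1, 107, 112 and 121 CPM at ZT0 and at 61.6, 70.5, 75.7 and 106.5 CPM at ZT12. The value of 106.5 CPM belonged to replicate 4, the mouse that stood apart, and the groups overlapped through it alone. The log2 difference, ZT0 minus ZT12, was 0.46 (SE 0.17, adjusted p = 0.487), and 0.65 without that mouse (adjusted p = 0.0459). That mouse was set apart by its effect on this same comparison, so the value without it cannot show a difference. Cldn10 was at 232 to 285 CPM at ZT0 and at 172 to 245 CPM at ZT12, with a log2 difference of 0.36 (SE 0.13, adjusted p = 0.487). Cldn3 had a log2 difference of -0.43 (SE 0.15, adjusted p = 0.487).

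Across the 30 young mice, the genes with the most similar pattern were sought among 13850 others by Pearson's r of log2 CPM. The mice share libraries of different depth and times of day, so r is a description. Cldn1 was most like Clpx (r = 0.913), Wsb1 (0.911) and the core clock gene Arntl (0.898). Cldn8 and Cldn10 were each other's closest match among all genes (0.935), and Prom1 came next for both (0.913 and 0.907). In the 27 nephritic mice the r of Cldn8 and Cldn10 was 0.096, a difference that was not tested. The third gene was Ermp1 (0.885) for Cldn8 and Prss23 (0.893) for Cldn10. Cldn4 was most like Ddah2 (0.904), Sdf4 (0.896) and Fam171a2 (0.895), Cldn3 most like B4galnt1 (0.857), Proc (0.838) and Hgfac (0.811), and Cldn7 most like N4bp3 (0.815), Ankrd9 (0.809) and Prkrip1 (0.791). Cldn2 was most like Ccnc (0.887), Galnt1 (0.884) and Cltc (0.881). Cldn5 was most like Ano8 (0.875), Plod3 (0.867) and Hoxb3 (0.853), none of them among the endothelial markers.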

How the data were processed

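Kidney RNASeq libraries of 65 mice were analysed, with 4 repeat libraries used only in alternatives. The authors aligned reads to mm10 and deposited raw counts of reads, 1 whole number per symbol and library. The methods name the Burrows-Wheeler algorithm and the submitters' processing notes name HISAT, and strand handling is not given in the sources used here. Of 24538 symbols, 15 without values were left out. No 2 libraries were identical.

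Genes with at least 100 counts over the libraries of a fit were kept, scaled by TMM and tested with edgeR 4.0.16 (R 4.3.3) by its quasi-likelihood test with Benjamini-Hochberg adjustment, at 0.05. CPM came from 1 TMM scaling of all 65 mice, and log2 CPM used a prior count of 2. Fits had time point and set as terms. Amplitudes came from a 24 h cosine and sine. Alternatives were RLE factors, DESeq2 1.42.0, limma 3.58.1 with voom, no filter, Set 2 alone, no set term, repeat libraries, a cosinor, a run term, other injury covariates and leaving out each library. Set 1 alone was added after seeing the data. The fits were tested on simulated data.

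The members and lists were chosen with earlier results of these data known. The 8 claudins were all named, with the 3 most similar genes of each (mean of at least 1 CPM in young mice) and other tight junction genes with a log2 change of at least 1; Cgn and single markers were named after seeing their values. The AP-1 letters were searched after the sequences were seen. Titles carry a code for each mouse, and each mouse gave 1 library to a fit unless repeats are named, so p-values measure the spread between mice. Per-length levels used the exons of GENCODE vM21.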

Additional observations from a re-analysis of the deposited data

Results flagged for a closer look

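In 96 groups of 4 to 7 mice, 1 per claudin and time group, 7 held a mouse far from the rest of its group, where chance gives about 1 in 20. For Cldn8 these were nephritic ZT0 replicate 3, at 201.2 CPM with the next at 136.1, nephritic ZT4 replicate 4, at 121.1 CPM with the next at 114.1, and nephritic ZT8 replicate 3, at 129.9 CPM with the next at 117. The first of them was also the mouse with the most Lcn2. For Cldn2 they were young ZT20 replicate 3, at 629.3 CPM with the next at 478, and young ZT8 replicate 4, at 554.7 CPM with the next at 453.7. For Cldn4 they were young ZT20 replicate 3, the lowest of its group at 22.77 CPM with the next at 36.06, and young ZT8 replicate 2, at 50.81 CPM with the next at 41.02. Young ZT20 replicate 3 was thus high in Cldn2 and low in Cldn4.

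The time course of Cldn8 differed between nephritic and young mice by the test of the group by time terms (adjusted p = 0.00625 by edgeR). The adjusted p was between 0.000167 and 0.0127 in the 57 fits that left out 1 mouse.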

How the results depend on the processing

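No paired analysis was possible because the labels give the mice no replicate numbers or shared animals across groups. Nephritis and age cannot be told apart, the run of the remission mice was estimated from 4 repeated mice, and rhythms rest on 3 to 7 mice a time.
Results that moved: in nephritic mice, the number of claudins that varied over the day was 1, but 3 by DESeq2, 2 by voom and 3 in Set 2 alone, and 1 to 3 leaving out each mouse, and of all genes 3646, but 5646 by DESeq2, 1994 without the set term and 362 by the cosinor. For a different time course it was 1, but 2 by DESeq2, 2 with the repeat libraries and 0 by the cosinor, and 1 to 2 leaving out each mouse, and of all genes 1099, but 2186 by DESeq2, 455 by voom, 1715 in Set 2 alone, 693 with repeat libraries and 121 by the cosinor, and 638 to 1771 leaving out each mouse. Against nephritic mice, 4001 genes differed in remission with the run term, in place of 6319. Against young mice, 2342 did in place of 7002, and 0 claudins in place of 2. The latter was 1 without remission ZT12 replicate 4 and 0 to 2 leaving out each mouse. Without that mouse 202 genes and 1 claudin differed between ZT0 and ZT12 in remission, in place of 0 and 0 (0 to 202 and 0 to 1 leaving out each mouse), and 24 genes by DESeq2.
Changes that did not pass and turned in sign were the log2 change of Cldn5 in nephritis (0.32 in Set 1 alone, -0.054 to 0.003 leaving out each mouse), of Cldn8 between remission and nephritic mice (-0.032 without remission ZT12 replicate 4, -0.032 to 0.11), of Cldn1 between remission and young mice (-0.023 without that mouse, -0.167 with the run term, -0.023 to 0.087), of Cldn10 there (0.14 with the run term), of Cldn2 between ZT0 and ZT12 in remission (-0.094 to 0.109) and the slope of Cldn8 on Lcn2 (-0.003 to 0.029). No claudin that passed turned in sign under any alternative run. The causes were not tested.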

Other observations

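Levels relative to the markers of a segment were set side by side as the difference between the log2 CPM of a claudin and the mean log2 CPM of the segment's markers, with no test. For Cldn2 against 6 proximal tubule markers, the difference was -1.18 ± 0.20 (SD, n = 30) in young, -0.54 ± 0.55 (n = 27) in nephritic and -0.09 ± 0.22 (n = 8) in remission mice. All 8 remission mice and 14 of 27 nephritic mice were above the highest young mouse, so the pore claudin was higher relative to the transport genes used as markers. For Cldn10 the choice of markers set the direction. Against the 4 thick ascending limb markers it was -1.27 ± 0.38 in young, -1.50 ± 0.38 in nephritic and -1.99 ± 0.05 in remission mice, with 7 of 8 remission mice below the lowest young mouse. Against the proximal tubule markers it was -2.36 ± 0.30, -2.0 ± 0.39 and -1.53 ± 0.52, with 6 of 8 remission mice above the highest young mouse. Cldn10 has forms in both segments that the counts merge.

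For Cldn4 against 5 principal cell markers, the difference was -1.33 ± 0.12 in young and -0.36 ± 0.87 in nephritic mice, with 22 of 27 nephritic mice above the young range and 2 below it. For Cldn8 the choice of markers again mattered. Against the same markers it was 0.18 ± 0.39 in young and 0.06 ± 0.45 in nephritic mice, with 0 above and 3 below. Against the 4 distal convoluted tubule markers it was -1.51 ± 0.34 in young and -0.62 ± 0.86 in nephritic mice, with 13 of 27 above the young range and 1 below. For Cldn5 against 6 endothelial markers it was -1.34 ± 0.39 in young, -1.16 ± 0.57 in nephritic and -2.0 ± 0.23 in remission mice.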
